A study of Mus musculus with 8 samples.

Results

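Cytokines and chemokines are secreted proteins by which a T lymphocyte acts on the cells around it. The 10 genes described here are *Ifng*, *Il2*, *Il10*, *Csf2*, *Lif*, *Xcl1*, *Ccl1*, *Ccl3*, *Ccl4* and *Ccl5*. They were matched by symbol to their Ensembl identifiers among the 55536 genes counted in each library. The choice was by name, without use of a threshold on their values, but with earlier results of these data known. Transcripts were measured in CD8+ T cells from lymph nodes of OT-I mice, which carry a transgenic T cell receptor (TcraTcrb) specific for the ovalbumin peptide SIINFEKL on a Rag-1KO background, where no lymphocytes with other antigen receptors form. The labelled strain is C57BL/6, and donors of either sex, aged 5 to 12 weeks, carried congenic CD45.1 or CD45.2 alleles. All cells were activated with 100 nM SIINFEKL for 2 days, washed, and expanded for 2 days in 20 ng/ml recombinant human IL-2. During these last 2 days the 4 GC7 cultures held 10 µM GC7, a spermidine derivative that inhibits the enzyme starting hypusination of the translation factor eIF5a, and the 4 mock cultures held the acetic acid vehicle. The comparison asks how the mRNA of each secreted factor differs in cells grown under this inhibitor. The methods call the 4 samples of a group biological replicates, but neither they nor the labels tie a replicate to an animal, so p-values measure the spread between these samples. The protocol given in the labels includes no second exposure to peptide before harvest, so the values describe expanding cells and not a recall response.

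In a CD8+ T cell, receptor signalling switches on the genes of this group through factors such as NFAT, AP-1 and NF-kB, and many of their mRNAs are short-lived because proteins such as ZFP36 bind AU-rich elements in the 3′ untranslated region. *Ifng* encodes interferon gamma, the main macrophage-activating product of cytotoxic T cells. *Xcl1* encodes the ligand of XCR1, a receptor of cross-presenting dendritic cells, and *Ccl3*, *Ccl4* and *Ccl5* encode CC chemokines that attract T cells and myeloid cells. *Il10* encodes an inhibitory cytokine.

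Total counts per library lay between 20045041 and 25284730 in the mock group and between 17528776 and 23449164 in the GC7 group. Values below are CPM, counts scaled to a common library size, with TMM factors that correct library totals for differences in composition, and are given as mean ± SD with n = 4. A gene was tested if it exceeded 3 CPM in at least 4 of the 8 libraries (52.6 counts in the smallest library, 75.9 in the largest), which 11189 genes did. Rose and fell are used where edgeR's quasi-likelihood test gave a false discovery rate (FDR) under 0.01 over all of these genes. The CD8 T cell markers were abundant, with a summed level of 4465 to 5238 CPM in the mock libraries and 3865 to 4173 CPM in the GC7 libraries. Of these 9 markers 2 rose and 5 fell, where 23.0% of all tested genes rose and 23.5% fell. Because RNA came from whole cultures, fewer cells making a factor and less mRNA per cell cannot be told apart.

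The promoters of 7 of the genes were matched in RefSeq, and the 250 bases before the start site are printed for 4 of them because they include the gene with the largest rise (*Xcl1*), a CC chemokine that rose (*Ccl3*), the defining cytokine of the cells (*Ifng*) and a gene that stayed near its detection limit (*Il2*). Sequences run 5′ to 3′ on the gene's own strand, and capitals mark the NFAT core GGAAA, or TTTCC where it lies on the other strand, and the TATA box TATAAA.
Xcl1 promoter, GRCm38.p6, chr1:164935523-164935772, minus strand: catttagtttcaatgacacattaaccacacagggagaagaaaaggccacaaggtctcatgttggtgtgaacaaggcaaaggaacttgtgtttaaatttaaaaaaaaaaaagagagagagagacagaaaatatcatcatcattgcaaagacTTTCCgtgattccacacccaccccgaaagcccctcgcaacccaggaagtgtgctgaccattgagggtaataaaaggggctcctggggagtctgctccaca
Ccl3 promoter, GRCm38.p6, chr11:83649379-83649628, minus strand: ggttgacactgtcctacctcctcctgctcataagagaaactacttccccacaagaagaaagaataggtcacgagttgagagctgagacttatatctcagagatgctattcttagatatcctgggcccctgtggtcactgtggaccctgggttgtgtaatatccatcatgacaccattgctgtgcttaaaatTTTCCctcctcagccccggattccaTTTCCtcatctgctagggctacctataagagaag
Ifng promoter, GRCm38.p6, chr10:118440796-118441045, plus strand: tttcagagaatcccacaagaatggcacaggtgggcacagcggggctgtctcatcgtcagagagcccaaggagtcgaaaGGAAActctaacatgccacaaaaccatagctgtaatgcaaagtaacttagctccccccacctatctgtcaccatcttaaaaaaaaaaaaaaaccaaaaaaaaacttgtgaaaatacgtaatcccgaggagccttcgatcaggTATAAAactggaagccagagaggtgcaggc
Il2 promoter, GRCm38.p6, chr3:37125955-37126204, minus strand: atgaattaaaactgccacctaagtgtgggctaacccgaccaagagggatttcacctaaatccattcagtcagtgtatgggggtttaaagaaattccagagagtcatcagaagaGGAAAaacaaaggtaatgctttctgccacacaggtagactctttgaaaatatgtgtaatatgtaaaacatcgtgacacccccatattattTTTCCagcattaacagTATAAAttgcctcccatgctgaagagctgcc

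The NFAT core, searched on both strands, occurred in the promoters of all 7 matched genes (*Ifng*, *Il2*, *Csf2*, *Lif*, *Xcl1*, *Ccl1* and *Ccl3*), and in 55.6% of 32851 RefSeq promoters. The letters TATAAA occurred in *Ifng* and *Il2*, against 12.4% of promoters. TGTGGT, the core bound by RUNX factors, occurred in *Lif*, *Xcl1* and *Ccl3*, against 14.0%, and the AP-1 letters TGANTCA occurred in *Lif*, against 6.75%. The CRE TGACGTCA and the C/EBP-ATF letters TGATGNAA were found in none of the 7 windows, against 1.55% and 3.45% of promoters. The only form of the NF-kB motif searched, a strict one whose letters include the NFAT core, was also found in none, against 1.41%. Looser forms of the NF-kB motif were not searched, so its absence from these windows cannot be read from this result. These matches describe letters in the windows and not sites of binding.

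The 3′ untranslated regions of the 10 genes, taken as the longest annotated for each, held very different numbers of the pentamer ATTTA, the core of AU-rich elements. Windows of 30 bases rich in it are shown for *Csf2*, *Il2*, *Ifng* and *Ccl3*, with the pentamers in capitals, as these genes were the richest for their length.
Csf2: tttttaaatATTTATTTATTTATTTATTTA
Il2: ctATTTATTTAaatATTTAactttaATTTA
Ifng: aacctATTTAttaatATTTAaaactATTTA
Ccl3: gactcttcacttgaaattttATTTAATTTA

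*Csf2* held 9 pentamers in 317 bases, a number reached by 0.123% of 811 genes with a region of similar length. *Il2* held 7 in 581 bases (0.642% of similar genes), *Ccl3* 5 in 409 bases (0.976%), *Ifng* 6 in 631 bases (1.39%) and *Il10* 6 in 706 bases (1.74%). *Lif* also held 7, but in 3180 bases, where 40.9% of similar genes held as many. *Ccl4* had 2 and *Xcl1* had 1, and none was found in *Ccl1* or *Ccl5*. *Ifng*, which rose, and *Il10*, which fell, held the same number, but not equally clustered. The richest window of *Ifng* held 3 pentamers and that of *Il10* held 1. Whether the pentamers bear on the direction of change was not tested.

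Of the 10 genes, 7 passed the expression minimum, 5 of which rose and 2 of which fell in GC7-treated cells. Among all tested genes 23.0% rose and 23.5% fell. Each of the 7 changed by more than 2-fold, which 3.14% of all tested genes did upwards and 5.24% downwards at the same FDR. The median log2 fold change over all tested genes was 0.02, and the median absolute change was 0.29. Of the 7, *Ifng*, *Lif*, *Ccl4* and *Ccl5* exceeded 3 CPM in all 8 libraries, whereas *Xcl1* passed through the GC7 libraries alone and *Il10* through the mock libraries alone, so that these 2 could hardly pass without a difference. *Ccl3* passed in 3 mock and 4 GC7 libraries. The other 3, *Il2*, *Csf2* and *Ccl1*, stayed under the minimum in every library and are described from their counts.

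**Figure D1:**
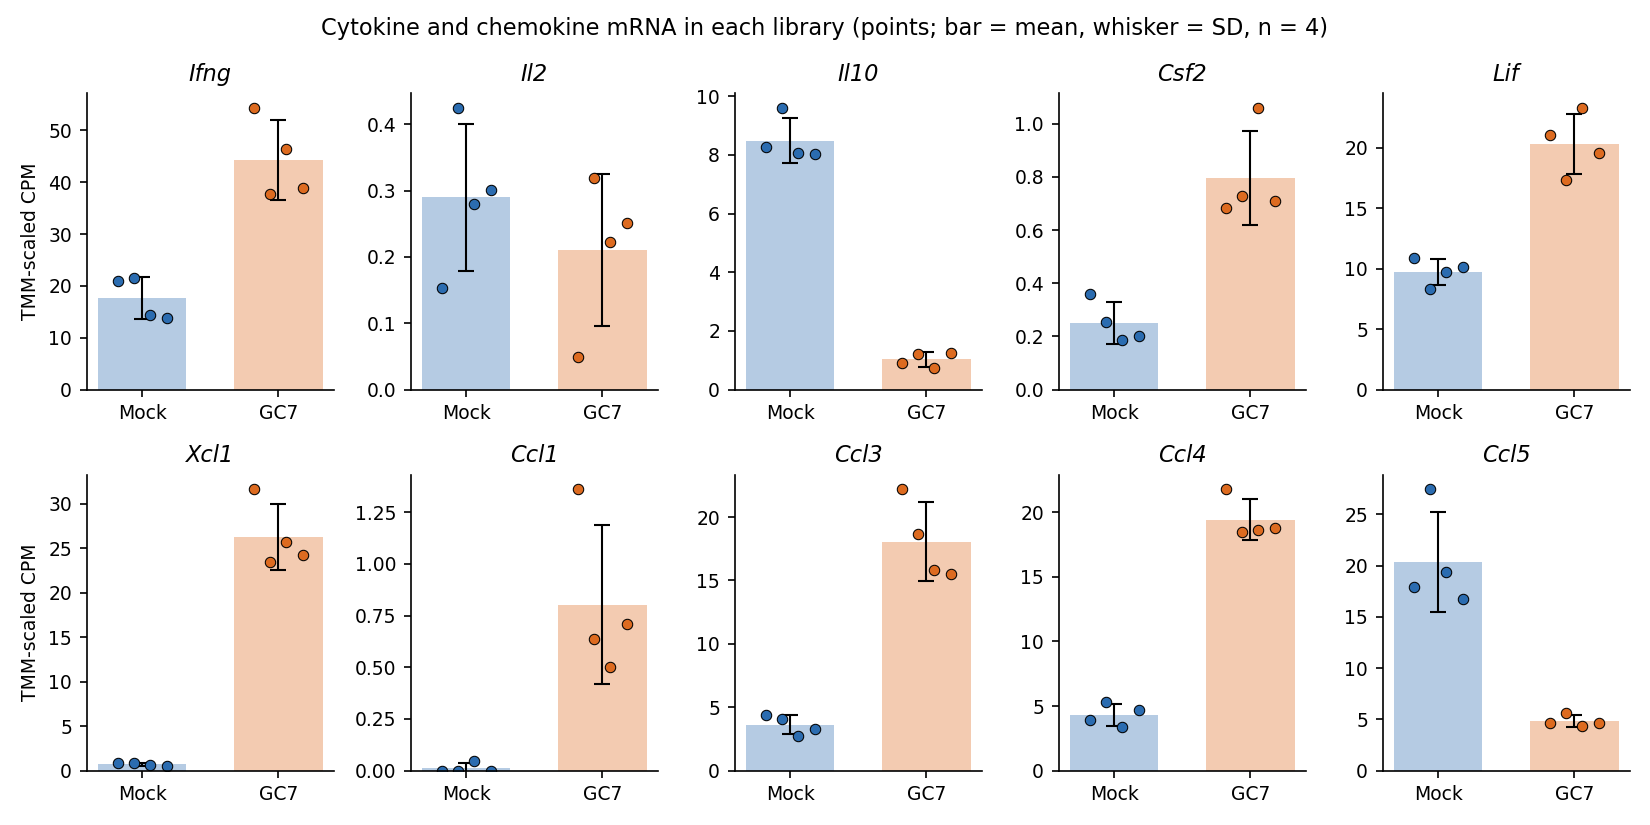
TMM-scaled CPM (vertical axis, a separate scale for each gene) of the 10 genes in the 4 mock and 4 GC7 libraries, with each library as a point, the mean as a bar and the SD as a whisker. The groups do not overlap for 9 genes and overlap for *Il2*, and *Il10* and *Ccl5* are the genes with the lower GC7 bars among those that separate.

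*Xcl1* (ENSMUSG00000026573, chromosome 1, 164931644 to 164935527, minus strand, GRCm38) changed most. It stood at 0.820, 0.808, 0.653 and 0.551 CPM in the mock libraries and at 31.7, 23.4, 25.7 and 24.3 CPM in the GC7 libraries. Every mock library was thus below 1 CPM and every GC7 library above 20 CPM. The mean went from 0.708 ± 0.129 to 26.3 ± 3.74 CPM, and the log2 fold change was 5.03 (SE 0.156, 95% interval 4.69 to 5.37, edgeR adjusted p = 1.5e-10), or 32.7-fold in the fit, from which the folds below also come. This was the third-largest increase of the 11189 tested genes. *Gm20743*, annotated on the opposite strand, had at most 3 counts in any library.

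*Ccl3* and *Ccl4*, which encode the macrophage inflammatory proteins 1 alpha and 1 beta, rose together. They lie 13229 bases apart on chromosome 11, *Ccl3* (ENSMUSG00000000982) at 83647844 to 83649355 on the minus strand and *Ccl4* (ENSMUSG00000018930) at 83662584 to 83664683 on the plus strand. *Ccl3* was at 4.41, 4.04, 2.75 and 3.26 CPM in mock and at 22.2, 18.7, 15.8 and 15.5 CPM in GC7 libraries. Its log2 fold change was 2.29 (SE 0.160, 95% interval 1.94 to 2.64, edgeR adjusted p = 1.8e-07). *Ccl4* was at 3.95, 5.27, 3.36 and 4.71 CPM in mock and at 21.8, 18.5, 18.6 and 18.8 CPM in GC7 libraries. Its log2 fold change was 2.14 (SE 0.130, 95% interval 1.86 to 2.42, edgeR adjusted p = 5.1e-08). For both genes the lowest GC7 library was well above the highest mock library, and the rises, 4.90-fold and 4.41-fold, had overlapping intervals.

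*Ccl5* (ENSMUSG00000035042, chromosome 11, 83525778 to 83530518, minus strand), another CC chemokine gene, went the other way. It was at 17.9, 27.5, 19.3 and 16.8 CPM in mock libraries and at 4.62, 5.64, 4.35 and 4.64 CPM in GC7 libraries. The mock libraries varied more than the GC7 libraries, with mock replicate 2 the highest, and every GC7 library stood below 6 CPM and every mock library above 16 CPM. The mean fell from 20.4 ± 4.86 to 4.81 ± 0.568 CPM, with a log2 fold change of -2.06 (SE 0.161, 95% interval -2.41 to -1.71, edgeR adjusted p = 4.7e-07).

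*Ccl1* (ENSMUSG00000020702, chromosome 11, 82176657 to 82305690, minus strand), the ligand of CCR8, was almost unread in mock cells. Its counts were 0, 0, 1 and 0 in the mock libraries and 28, 14, 9 and 17 in the GC7 libraries. The groups did not overlap, but every library lay far below the minimum for testing. The summed counts, scaled for depth, gave a ratio of 68.1 with an exact 95% interval of 11.8 to 2727, which covers counting error only, since reads carried no molecular identifiers. The 2-sided exact permutation test of its CPM gave p = 0.0286, the smallest that 4 libraries against 4 can give. When edgeR was run with its filterByExpr minimum, *Ccl1* was tested and rose, with a log2 fold change of 3.07 and an adjusted p of 2.8e-05, a fold that depends on the prior count because mock libraries held 1 count in all.

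The balance between chemokines within a library does not depend on how libraries are scaled, and was compared for 4 pairs. The ratio of *Ccl3* to *Ccl4* did not differ beyond the spread, with a mean log2 ratio of -0.26 ± 0.296 in mock and -0.12 ± 0.159 in GC7 libraries (difference 0.14, 2-sided exact permutation p = 0.4, adjusted over 4 pairs 0.4). This difference rests on single libraries, being 0.28 (exact permutation p = 0.0571) without mock replicate 1 and 0.05 (p = 0.714) without mock replicate 4. The ratio of *Ccl5* to *Ccl4* moved from 4.67 to 0.248, a log2 difference of -4.23 (exact permutation p = 0.0286, adjusted 0.0381). The ratio of *Xcl1* to *Ccl5* moved from 0.0361 to 5.42, a log2 difference of 7.23 with the same p. *Ccl5* thus exceeded *Ccl4* and *Xcl1* in every mock library and lay below both in every GC7 library, per kilobase of exon as well as in counts. For *Ccl1* to *Ccl4* the log2 difference was 2.45 with 0.5 counts added (exact permutation p = 0.0286, adjusted 0.0381), but it became -0.12 (p = 0.657) with 5 counts added, so that no direction can be read from it.

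**Figure D2:**
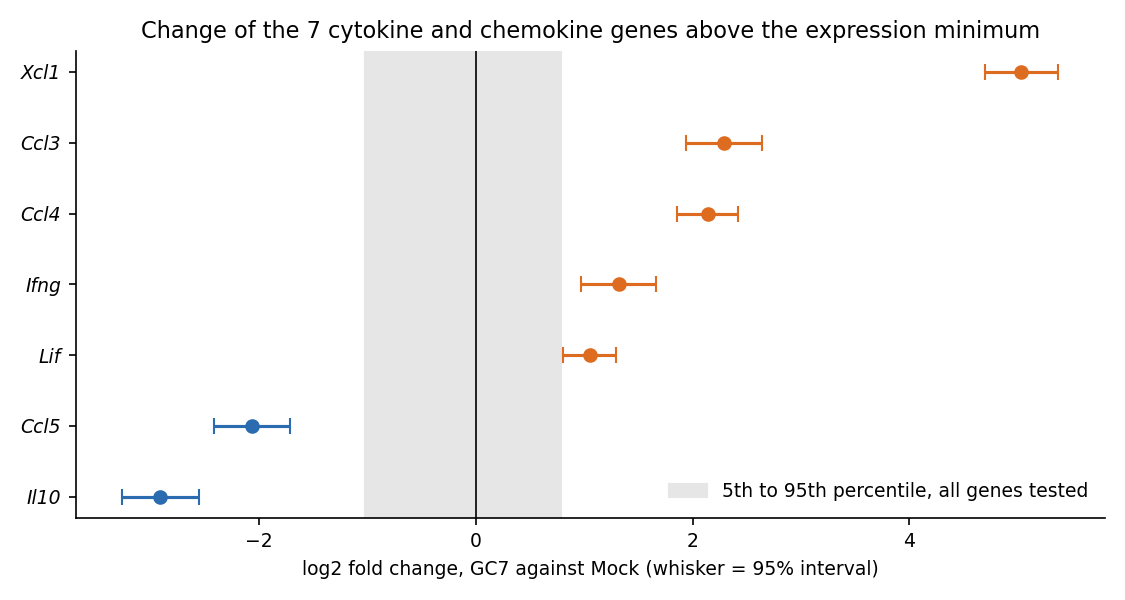
Log2 fold change of GC7 against mock (horizontal axis) for the 7 genes above the expression minimum, with edgeR's estimate as a point and its 95% interval as a whisker; the grey band spans the 5th to 95th percentile of all tested genes, -1.02 to 0.79. All 7 points lie outside the band, 5 to the right and 2 to the left, with *Xcl1* at 5.03 and *Il10* at -2.91 as the ends.

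Among the cytokines, *Ifng* (ENSMUSG00000055170, chromosome 10, 118441046 to 118445892, plus strand) rose. Its levels were 20.9, 21.5, 14.4 and 13.8 CPM in mock libraries and 54.4, 37.7, 46.3 and 39.0 CPM in GC7 libraries. The lowest GC7 library exceeded the highest mock library, although the spread within both groups was wide. The mean went from 17.7 ± 4.10 to 44.3 ± 7.70 CPM, with a log2 fold change of 1.32 (SE 0.158, 95% interval 0.98 to 1.66, edgeR adjusted p = 1.8e-05), or 2.49-fold. Its biological coefficient of variation, the replicate spread beyond counting error, was 0.152, the highest of the 7 genes and above the median of 0.0856 over all tested genes. *Gm49751*, an unverified transcript on the same strand that overlaps *Ifng*, had 13 to 34 counts.

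*Il10* (ENSMUSG00000016529, chromosome 1, 131019845 to 131024974, plus strand), in contrast, had the largest fall of the 7. It was at 8.25, 9.61, 8.06 and 8.02 CPM in mock libraries and at 0.925, 1.23, 0.725 and 1.25 CPM in GC7 libraries. The mock libraries were tightly grouped and each was more than 6 CPM above every GC7 library. The mean fell from 8.49 ± 0.755 to 1.03 ± 0.254 CPM, and the log2 fold change was -2.91 (SE 0.162, 95% interval -3.26 to -2.56, edgeR adjusted p = 2.7e-08), or 7.51-fold. In the order of all tested genes it was number 79 from the largest decrease.

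*Lif* (ENSMUSG00000034394, chromosome 11, 4257557 to 4272514, plus strand) encodes leukaemia inhibitory factor, a cytokine of the interleukin 6 family that signals through gp130. It was at 10.9, 8.33, 9.69 and 10.2 CPM in mock libraries and at 21.0, 17.3, 23.3 and 19.6 CPM in GC7 libraries. Its biological coefficient of variation, 0.101, was the lowest of the 7 genes, close to those of *Il10* (0.103) and *Ccl4* (0.104). Its log2 fold change of 1.05 (SE 0.111, 95% interval 0.81 to 1.29, edgeR adjusted p = 6.6e-06) was the smallest rise. *Osm*, the gene of the related cytokine oncostatin M, lies 16531 bases from *Lif* and fell by 1.13 on the log2 scale (edgeR adjusted p = 1.3e-07). Neighbouring members of one family thus changed in opposite directions.

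*Csf2* (ENSMUSG00000018916, chromosome 11, 54247271 to 54249667, minus strand) encodes GM-CSF, a growth factor of myeloid cells. It had 7, 6, 4 and 4 counts in the mock libraries and 14, 16, 19 and 17 counts in the GC7 libraries. All GC7 counts were above all mock counts, at levels under 1.1 CPM. The depth-scaled ratio was 3.15 with an exact 95% interval of 1.90 to 5.41, and the exact permutation test of CPM gave p = 0.0286. With filterByExpr in place of the minimum, edgeR gave a log2 fold change of 1.35 with an adjusted p of 0.000998. *Gm12223*, annotated antisense to it, had at most 1 count.

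*Il2* (ENSMUSG00000027720, chromosome 3, 37120523 to 37125959, minus strand), the T cell growth factor supplied to these cultures as human protein, had 3, 10, 6 and 6 counts in mock and 1, 7, 4 and 6 counts in GC7 libraries. The groups overlapped, and a difference was not detectable at this depth. The ratio was 0.721 with an exact 95% interval of 0.370 to 1.37, and the exact permutation test gave p = 0.371. A stretch of 207 bases of its transcript is 99.5% identical to *Ntan1*, an expressed gene, so that these few counts are uncertain, and *Adad1*, which overlaps it on the opposite strand, had at most 1 count.

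CPM did not overlap between the groups for 9 of the 10 genes, against 55.6% of all tested genes. The 9 include *Csf2* and *Ccl1*, which lay under the minimum, so the 2 sets are not alike. They also include *Xcl1* and *Il10*, which could hardly pass the minimum without a difference. Together the 10 genes took 0.00630% ± 0.000757 of all counts in mock and 0.0140% ± 0.00171 in GC7 libraries (2-sided exact permutation p = 0.0286). Without *Ccl5* the shares were 0.00434% and 0.0135%. The make-up of these counts changed more than the sum. In mock libraries *Ccl5* (30.9%) and *Ifng* (26.8%) supplied most of them, followed by *Lif* (15.2%) and *Il10* (13.0%). In GC7 libraries *Ifng* (32.4%) was followed by *Xcl1* (19.3%), *Lif* (15.0%), *Ccl4* (14.3%) and *Ccl3* (13.3%), while *Ccl5* (3.59%) and *Il10* (0.777%) were minor.

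**Figure D3:**
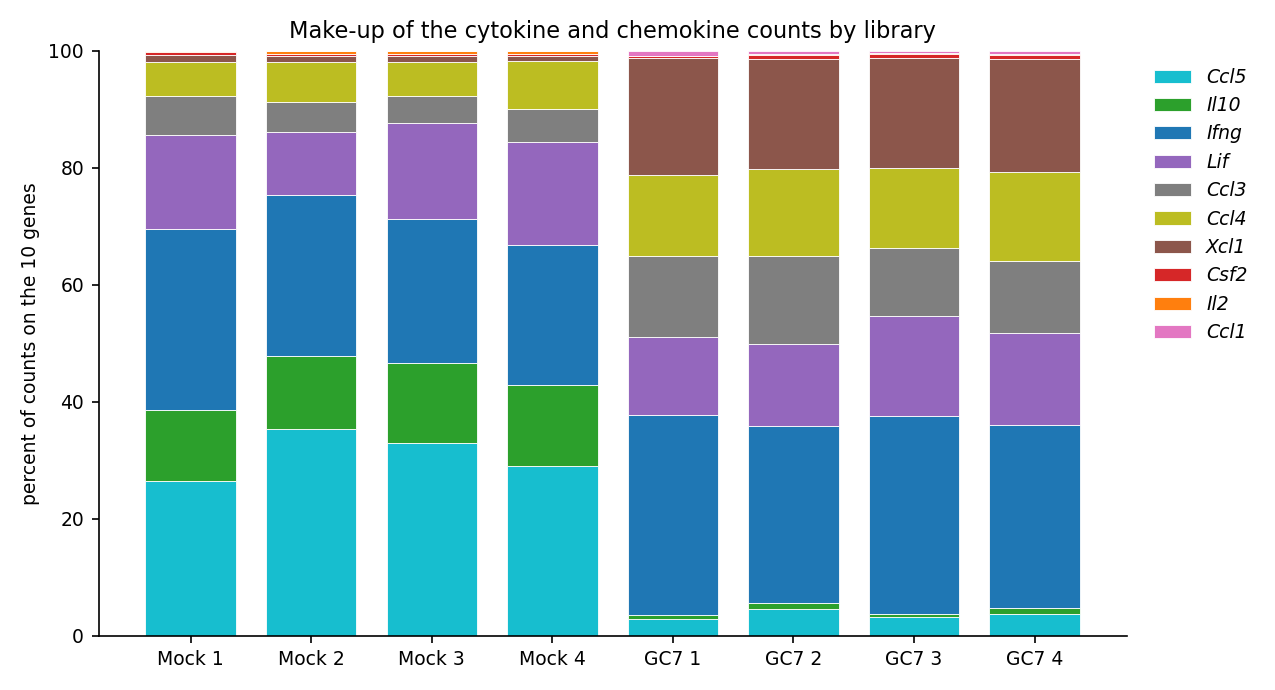
Percent of the counts on the 10 genes (vertical axis) that each gene took in each of the 8 libraries, as stacked bars. *Ccl5* and *Il10* fill the lower part of the 4 mock bars and shrink to a mean of 3.59% and 0.777% in the 4 GC7 bars, where *Xcl1* takes 19.3%.

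Levels of different genes were compared per kilobase of exon. On this scale (RPKM, computed from the counts, mean over 4 libraries) the mock order was *Ccl5* (21.2), *Ifng* (13.7), *Ccl4* (6.55), *Il10* (6.48), *Ccl3* (4.72), *Lif* (2.25), *Xcl1* (1.35), *Csf2* (0.313), *Il2* (0.253) and *Ccl1* (0.00492). Among neighbours in this order the libraries overlapped for *Ccl4* with *Il10* and for *Csf2* with *Il2*. The GC7 order was *Xcl1* (50.2), *Ifng* (34.2), *Ccl4* (29.4), *Ccl3* (23.6), *Ccl5* (5.01), *Lif* (4.67), *Csf2* (0.994), *Il10* (0.789), *Ccl1* (0.339) and *Il2* (0.184). Here the neighbours from *Ifng* to *Ccl3*, *Ccl5* with *Lif*, and the 4 genes at the lower end overlapped. By mean RPKM, *Xcl1* moved from percentile 8.70 to 90.8 of all tested genes, *Ifng* from 66.0 to 86.3, and *Ccl5* from 76.6 to 35.6.

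For each tested gene, the protein-coding genes with the most similar profile over the 8 libraries were taken, by the root mean square difference of centred log2 CPM. *Xcl1* was nearest to *Sulf2* (0.329), *Cox6a2* (0.333) and *Serpine2* (0.378), which had log2 fold changes of 5.08, 4.81 and 4.41. *Ccl3* was nearest to its neighbour *Ccl4* (0.215), then to *Thrb* (0.225) and to *Nr4a3* (0.226), a gene induced by T cell receptor signals. *Ccl4* was nearest to *Reep6* (0.188), *Pkd2* (0.202) and *Mx1* (0.211), the last an interferon-induced gene. *Ifng* was nearest to *Lysmd2* (0.193), *Lacc1* (0.206) and *Gpr179* (0.213), and *Lif* to *Cdc42bpg* (0.0821), *Cep170b* (0.0867) and *Abcb1b* (0.0873). *Il10* was nearest to the metallothionein gene *Mt1* (0.148), *Man1c1* (0.156) and *Ndrg1* (0.173), and *Ccl5* to *Ifitm2* (0.132), *Tnnt1* (0.134) and *Anxa2* (0.153). These are descriptions over 8 libraries in 2 groups, in which any pair of genes with a like fold change is alike.

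Other secreted cytokines and growth factors changed in both directions. Of 29 listed genes 9 were tested, of which 2 rose, 5 fell and 2 did not pass, with a median log2 fold change of -0.41. *Csf1*, the macrophage growth factor (1.36 to 3.61 CPM, log2 fold change 1.36), and *Spp1*, osteopontin (4.02 to 9.22 CPM, 1.19), rose, *Csf1* having passed the minimum through the GC7 libraries alone. *Osm* (48.2 to 22.0 CPM, -1.13) and *Tgfb3* (13.1 to 8.74 CPM, -0.58) fell. Of 31 other chemokines only *Ccl25* and *Ccl27a* were tested, and 18 had no count in any library. *Ccl25*, a ligand of the gut-homing receptor CCR9, rose from 4.24 to 7.67 CPM (log2 fold change 0.84), and *Ccl27a* did not pass. Without the minimum, *Cxcl10*, *Ccl22* and *Cx3cl1* also rose in edgeR (log2 fold changes 1.31, 1.73 and 1.59). Their GC7 means were 1.06, 0.336 and 0.193 CPM. *Ccl22* had 0, 0, 1 and 2 counts in mock and 7, 4, 5 and 13 in GC7 libraries. *Cx3cl1* had 0 counts in every mock library and 3, 3, 5 and 5 in GC7 libraries. With filterByExpr only *Cxcl10* of these genes also rose (1.30). They were singled out after their values were seen.

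Of 17 receptor chains for the 10 factors 11 were tested, of which 3 rose, 5 fell and 3 did not pass, with a median log2 fold change of -0.25. *Xcr1*, the receptor of the XCL1 protein, fell from 5.14 to 0.631 CPM (log2 fold change -2.84, edgeR adjusted p = 1.8e-07) while *Xcl1* rose. It passed the minimum through the mock libraries alone, so that it could hardly be tested without a fall. *Ifngr2*, a chain of the interferon gamma receptor, rose from 2.92 to 7.49 CPM (1.33), having passed the minimum in 1 mock and 4 GC7 libraries, and *Csf2ra*, the GM-CSF receptor alpha chain, rose from 10.9 to 21.4 CPM (0.96). Of the IL-2 receptor chains, *Il2rb* fell from 1525 to 830 CPM (-0.88, edgeR adjusted p = 6.8e-05), and *Il2ra* and *Il2rg* did not pass the threshold.

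Transcription factors that act on cytokine genes were more often lower than higher. Of 25 tested genes 3 rose, 13 fell and 9 did not pass, with a median log2 fold change of -0.25. The early response genes in this list mostly fell, *Egr1* from 392 to 111 CPM (log2 fold change -1.82) and *Fos* from 118 to 49.7 CPM (-1.24). *Egr2* (-0.74), *Junb* (-0.74), *Jun* (-0.66) and *Nr4a1* (-0.50) also fell, and *Fosl2* did not pass. *Egr3*, in contrast, rose from 8.26 to 24.2 CPM (1.54). *Nr4a3*, a gene induced by T cell receptor signals but outside this list, was also higher, going from 13.1 to 69.8 CPM (2.41). Genes of NF-kB and NFAT differed among themselves. *Rel* rose from 37.4 to 79.1 CPM (1.08), whereas *Nfkb1* fell (-0.76) and *Rela* did not pass. *Nfatc1* rose (0.32), whereas *Nfatc2* fell (-0.48) and *Nfatc3* did not pass. *Prdm1*, which encodes BLIMP-1, fell from 55.6 to 22.5 CPM (-1.30). *Tbx21*, which encodes T-bet, the factor best known for driving *Ifng*, changed by -0.08 and did not pass (edgeR adjusted p = 0.527).

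Of 12 RNA-binding proteins that act on cytokine mRNAs, all tested, 6 rose, 3 fell and 3 did not pass. *Zfp36*, which encodes tristetraprolin, the decay factor that binds AU-rich elements, fell from 206 to 90.5 CPM (log2 fold change -1.19, edgeR adjusted p = 5.8e-08). Its relative *Zfp36l2* fell from 283 to 168 CPM (-0.76), whereas another relative, *Zfp36l1*, rose from 48.6 to 75.9 CPM (0.64, edgeR adjusted p = 6.8e-05). *Tia1* rose from 42.3 to 70.3 CPM (0.73) and *Rc3h2*, which encodes roquin-2, rose from 26.8 to 44.5 CPM (0.73). Without GC7 replicate 1, 3 of the 12 rose in place of 6. The 26 and 12 genes of these lists were chosen for known roles. Their counts, and those of the cytokine, chemokine and receptor lists, stand beside the 23.0% and 23.5% of all tested genes that rose and fell.

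**Figure D4:**
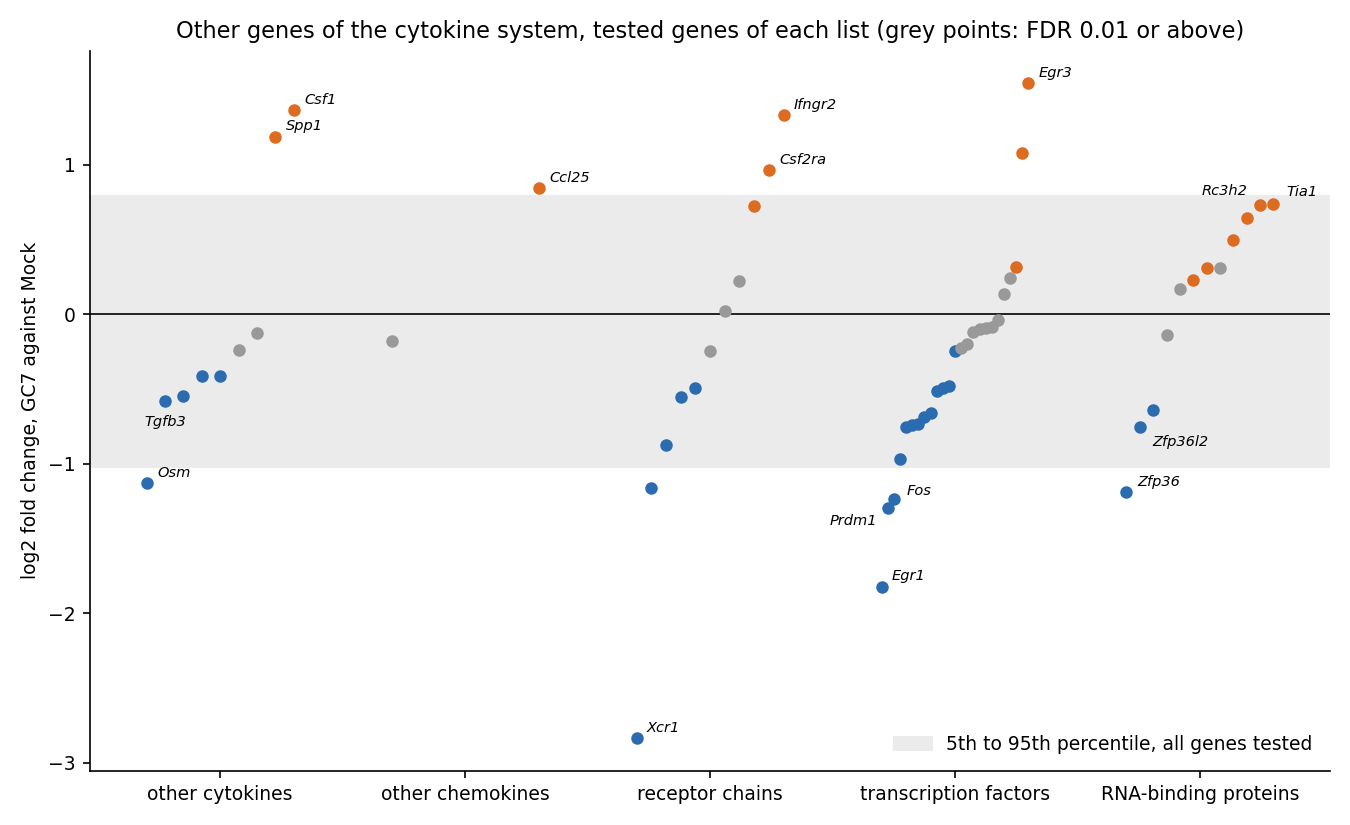
Log2 fold change of GC7 against mock (vertical axis) for the tested genes of 5 lists, 1 point a gene, orange where it rose, blue where it fell and grey where the FDR was 0.01 or above; the grey band spans the 5th to 95th percentile of all tested genes. *Xcr1* at -2.84 lies lowest and *Egr3* at 1.54 highest, and most genes labelled in the cytokine and transcription factor lists lie outside the band.

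Cells other than T cells can also make these factors, so their markers were read in the same libraries. The B cell markers *Pax5* and *Ms4a1*, the macrophage markers *C1qa* and *C1qb*, the dendritic cell markers *Clec9a* and *Siglech*, the neutrophil markers *S100a8* and *S100a9* and the mast cell marker *Fcer1a* had no counts in any library. The summed level of 9 macrophage and monocyte markers was 8.44 to 11.1 CPM in mock and 5.73 to 9.77 CPM in GC7 libraries, mostly *Cd68*, and that of 6 B cell markers was 7.02 to 10.5 and 4.63 to 5.97 CPM, mostly *Cd79b*. The 6 neutrophil markers summed to 1.13 to 1.91 CPM in mock and 0 to 0.182 CPM in GC7 libraries. The 4 NK cell markers summed to 0.140 to 0.256 and 0.223 to 0.925 CPM. The 7 dendritic cell markers summed to 37.4 to 40.3 and 45.0 to 50.5 CPM, mostly *Batf3* (37.9 and 42.4 CPM on average), which did not pass the threshold. Of the others, *Zbtb46* rose from 0.457 to 4.11 CPM and passed the minimum through the GC7 libraries alone, and the remaining 5 had at most 7 counts in any library. The 6 mast cell and basophil markers (43.9 to 62.7 and 45.4 to 53.2 CPM, mostly *Kit*), the 4 CD4 and regulatory T cell markers (93.7 to 98.0 and 76.7 to 85.8 CPM, mostly *Zbtb7b*) and the 6 markers of stroma and endothelium (52.3 to 57.0 and 30.7 to 32.8 CPM, mostly *Pecam1*) each rested mainly on 1 gene. The part of such cells in the values of the 10 genes was not tested.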

How the data were processed

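The authors deposited 1 table of raw counts per Ensembl gene for each library, not normalised and not pooled. Per the labels and the methods, paired-end reads of total RNA were trimmed with Cutadapt (version 2.3), aligned with STAR to GRCm38 (Ensembl 96) and counted with featureCounts. How strand and multiply mapping reads were treated in counting is not given in the sources used here, so reads of overlapping or near-identical genes cannot be assigned with certainty. Groups and replicate numbers came from the labels. No pair of libraries agreed within sampling noise (chi-square per degree of freedom 2.36 to 28.1 within groups).

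From these counts, genes above 3 CPM in at least 4 of 8 libraries were tested with edgeR (version 4.0.16, R version 4.3.3), by the quasi-likelihood F test with TMM factors and a model of the group alone, and p-values were adjusted by Benjamini-Hochberg over 11189 genes. Log2 fold changes use a prior count of 2, and SEs were derived from the estimate and its F. Scaling by TMM would hide a change common to most mRNAs. The procedure was tested on simulated counts. Single values were compared by 2-sided exact permutation tests over the libraries. Intervals for summed counts are exact and cover counting error only, since reads had no molecular identifiers. RPKM was computed from the counts and the union of annotated exons. Near-identical copies were searched with BLAST (version 2.17.0) at 200 bases and 90% identity or more. Promoters came from RefSeq (GRCm38.p6), and 3′ untranslated regions from the annotation of the same release as the counts.

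The genes and lists were chosen with earlier results of these data known. Named are the 10 genes, in each list the genes past the threshold with the 4 largest changes, and for each tested gene the 3 most similar. *Tbx21*, *Il2ra*, *Il2rb*, *Il2rg*, *Batf3*, *Ccl27a*, *Zbtb46* and the chemokines named without the minimum are named beyond this rule, with their values already known. The same holds for *Egr2*, *Jun*, *Junb*, *Nr4a1*, *Fosl2* and *Zfp36l1*, and for *Rel*, *Rela*, *Nfkb1*, *Nfatc1*, *Nfatc2* and *Nfatc3*. *Tnf* was not analysed here, and 1 receptor chain that the rule selects is not reported here. Alternatives were RLE factors, library totals, DESeq2 (version 1.42.0), limma-voom (limma version 3.58.1), no minimum, filterByExpr, prior counts of 0.125 and 5, a replicate block, 5 counts added to ratios, and each library left out in turn.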

Additional observations from a re-analysis of the deposited data

Results flagged for a closer look

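In 4 of 30 groups of 4 libraries examined, 1 library stood apart from the others, with a gap to its nearest neighbour, as a ratio to the group's range, above Dixon's 95% critical value, which chance exceeds in about 1 of 20 groups. *Il10* peaked in mock replicate 2, at 9.61 CPM (ratio 0.851). *Ccl4* in GC7 replicate 1 was the highest at 21.8 CPM (ratio 0.905), and *Csf2* in GC7 replicate 3 at 1.06 CPM (ratio 0.877). For *Ccl1* mock replicate 3 held the only count of its group, at 0.0466 CPM (ratio 1.0). For *Il10*, *Ccl4* and *Csf2* the library that stood apart lay within a group that did not overlap with the other, and leaving it out did not change the direction.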

How the results depend on the processing

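The log2 fold changes of the 7 tested genes kept their direction and stayed past the threshold under RLE factors, library totals, DESeq2, limma-voom, no minimum, filterByExpr, both prior counts, the replicate block and each library left out. Their ranges over all of these were 4.81 to 5.20 for *Xcl1*, 2.17 to 2.39 for *Ccl3*, 2.04 to 2.26 for *Ccl4*, 1.20 to 1.43 for *Ifng*, 0.98 to 1.14 for *Lif*, -2.15 to -1.88 for *Ccl5* and -3.02 to -2.76 for *Il10*. Without a minimum or with filterByExpr, *Csf2* and *Ccl1* entered the test and 7 genes rose in place of 5. Deviations of same-numbered mock and GC7 libraries correlated at -0.18 to 0.27, with libraries 1 and 3 closest to their own number, which does not show a pairing, and no source says whether a number marks a shared animal or culture. With the number as a replicate block, *Xcl1* changed by 5.03, *Ifng* by 1.33 and *Il10* by -2.92, with 5 genes higher and 2 lower as without it. The log2 difference in the ratio of *Ccl1* to *Ccl4* was -0.12 with 5 counts added, and 2.16 to 2.95 with each library left out. Without any 1 GC7 library its exact permutation p was 0.0571. The number of other chemokines that rose was 4 without a minimum and 2 with filterByExpr, against 1, and that of RNA-binding proteins was 3 without GC7 replicate 1, against 6. Depth limits *Il2*, *Csf2* and *Ccl1*, which had at most 28 counts in any library.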
